A study of Homo sapiens with 2 samples.

Results

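Fatty acid and cholesterol metabolism was described here through 54 genes, chosen as every gene probe on the array whose gene name is on a list of lipid enzymes, regulators and binding proteins. They were selected on their names by a list that was drawn up with the ratios of these same arrays known, so all values below are a description and no test was made. The 54 genes had 70 of the 34127 gene probes and were treated as 3 functions: 19 genes of fatty acid activation and oxidation, 20 of lipogenesis and lipid storage, and 15 of sterol synthesis. A gene counted as measured when a probe of it was well above background, as Agilent's software judges it, on both arrays in ALDH+ or in ALDH- cells. By that measure 47 of the 54 genes were measured (16, 16 and 15 by function), among 13702 of 27193 genes on the array.

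RMG1, an established line of ovarian clear cell adenocarcinoma kept in DMEM/F12 with fetal bovine serum, was sorted by the ALDEFLUOR assay, which makes cells with aldehyde dehydrogenase (ALDH) activity fluoresce. ALDH+ cells (ALDEFLUOR positive) were compared with ALDH- cells (ALDEFLUOR negative) of the same culture, with no other treatment named, to look for transcripts of cancer stem-like cells. The sample labels and the paper's results name RMG1, but the paper's methods take the RNA from AMOC2, a serous ovarian line. On array 1 the ALDH+ cells were in Cy5 and the ALDH- cells in Cy3, and on array 2 the dyes were exchanged.

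Both arrays carried the same 2 RNA extracts, so each population has 1 sample, and the spread between arrays is technical. The number of arrays limits the precision. A ratio in a sorted population cannot tell a different share of cells from a different amount of RNA per cell. Each array had 43118 spots of gene probes, and 0 of them were saturated. The median gap between a gene's ratios on the 2 arrays was 0.16 (Pearson's r of 0.69 and Spearman's rho of 0.59 across 13702 genes, which share both extracts). All 7 ovarian epithelial markers examined were measured, with a median log2 ratio of 0.01 and the lowest, PAX8, at -0.74. Of 7 clear cell markers 5 were measured, with a median of -0.17 and the lowest, TFPI2, at -1.49. LEFTY1 and VIL1 were not well above background. The summed signal of the 5 measured clear cell markers was 87743 in ALDH+ and 156584 in ALDH- cells, and its part in the lipid gene ratios was not tested. None of 8 adipocyte and hepatocyte markers (0 of 8, with ALB, LEP and PLIN1 among them) and 0 of 8 fibroblast markers was measured. Of 8 leukocyte markers on the array 3 were measured (CD14, CD68 and PTPRC), with summed signals of 508 in ALDH+ and 439 in ALDH- cells.

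Fatty acids enter metabolism only after an acyl-CoA synthetase has joined them to coenzyme A. The acyl-CoA is then either carried into mitochondria on carnitine and shortened by beta-oxidation, or built into triglycerides, phospholipids and cholesterol esters. New fatty acids are made from cytosolic acetyl-CoA by the carboxylase ACACA and the synthase FASN, and cholesterol is made from the same precursor through mevalonate and squalene. The transcription factors SREBF1 and SREBF2, held in the endoplasmic reticulum by SCAP and the INSIG proteins while sterols are plentiful, switch on the genes of both routes.

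The probes of the genes with the largest ratios are shown here because every value below rests on what these short stretches bind. Each probe is 60 bases long, lies in the sense of its transcript, and is placed on hg19 by the array's own annotation; its first 30 bases are given in lower case, 5′ to 3′. No hg19 gene annotation was used here, so exons and UTRs are not assigned.
VNN1 (NM_004666, chr6:133002801-133002860, minus strand): gaaagcccataatgtatttagaaacaggaa
ACSL5 (NM_203380, chr10:114188056-114188115, plus strand): ctgctctaccttacccacagataacacatg
ACSL4 (NM_004458, chrX:108885270-108885329, minus strand): gttataggtcctttagaaacacataattaa
ACACA, brighter probe (NM_198839, chr17:35441933-35441992, minus strand): tgagcaggagcttcagatgcactctttaca
ACACA, dimmer probe (NM_198839, chr17:35687237-35687296, minus strand): agcactctcgattcataataggttctgtgt

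Of the 47 measured genes, 4 had a mean ratio past 1.5-fold (0.585 on the log2 scale). VNN1 and ACSL5 were higher in ALDH+ cells (4.26% of the 47), and ACSL4 and ACACA were lower (4.26%). Of all 13702 measured genes, 1.5% were more than 1.5-fold higher and 4.6% more than 1.5-fold lower. Past 2-fold, the threshold that the study names, 2 lipid genes were higher (VNN1 and ACSL5) and 0 were lower, where 0.212% and 0.708% of all genes were. The median log2 ratio was 0.02 over the 47 genes and -0.003 over all measured genes, and 30 of the 47 lay within 0.25 of 0 (63.8%, against 67.9% of all measured genes). Both arrays put 22 genes higher in ALDH+ cells and 17 lower, and 8 (17.0%) had opposite signs on the 2 arrays. Of all measured genes, 33.6% were higher on both, 36.2% lower on both and 30.2% opposite. For 17 of the 47 (36.2%) the mean ratio was smaller in size than the gap between the arrays, against 48.5% of all genes.

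**Figure D1:**
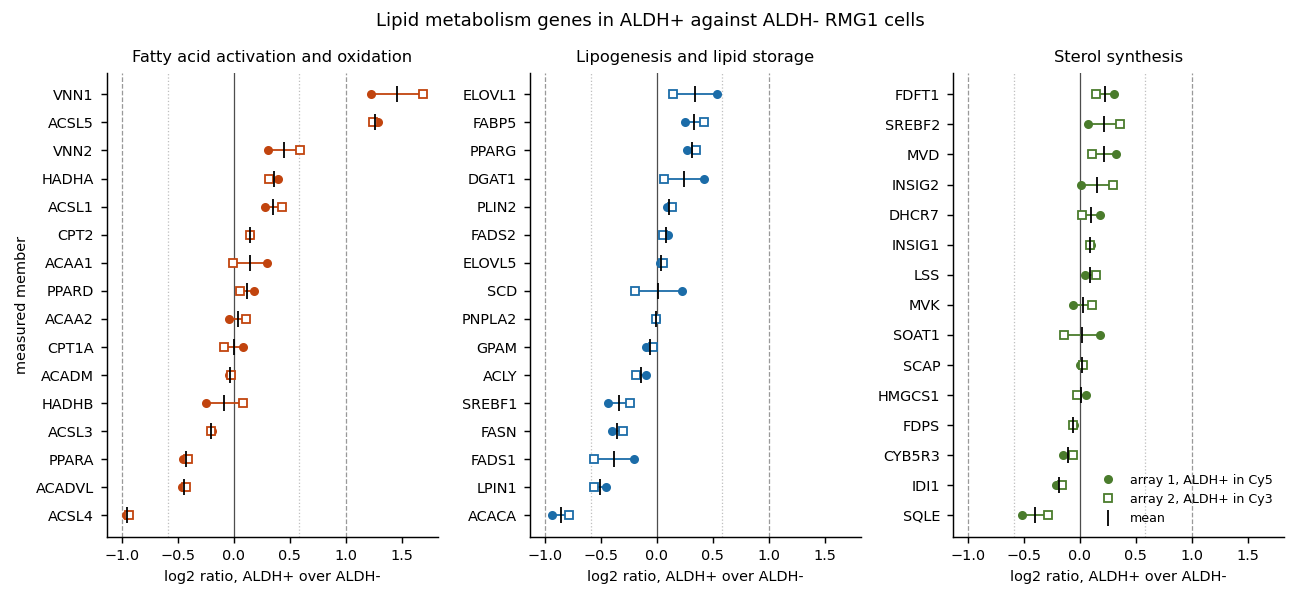
Log2 ratio of ALDH+ over ALDH- cells (horizontal axis) for each of the 47 measured lipid genes (vertical axis), in 3 panels by function; filled circles are array 1, open squares array 2 and black ticks their mean, with dotted lines at 1.5-fold and dashed lines at 2-fold. VNN1 and ACSL5 lie beyond 2-fold on the right, ACSL4 and ACACA between 1.5-fold and 2-fold on the left, and 14 of 15 sterol synthesis genes within 0.25 of 0.

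The acyl-CoA synthetases of the ACSL family activate long-chain fatty acids, and they did not move together. ACSL5, a mitochondrial and endoplasmic reticulum isoform, had normalised signals of 3055 on array 1 and 3151 on array 2 in ALDH+ cells, against 1249 and 1334 in ALDH- cells. Its log2 ratio was 1.29 and 1.24, with a mean of 1.27 ± 0.036 (technical SD, n = 2 arrays), which is 2.40-fold and ranked 10th from the highest of 13702 genes. Both ALDH+ signals lay above both ALDH- signals. ACSL4, the isoform that prefers arachidonic acid and other polyunsaturated fatty acids, had signals of 678 and 702 in ALDH+ cells and of 1323 and 1343 in ALDH- cells. The log2 ratio of ACSL4 was -0.96 and -0.94, with a mean of -0.95 ± 0.020, which is 1.93-fold lower and ranked 125th from the lowest. Both ALDH+ signals of ACSL4 lay below both ALDH- signals. These are repeat readings of 1 extract per population. Such a gap was also seen at small ratios, as for ACSL3 and INSIG1, and its share over all genes was not counted. By mean ratio, the family holds the lipid gene with the lowest value and one of the 2 with the highest.

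The other measured synthetases differed less. ACSL1, the main isoform of oxidative and storage tissues, had signals of 1104 and 1148 in ALDH+ cells and of 911 and 853 in ALDH- cells, for log2 ratios of 0.28 and 0.43 and a mean of 0.35. ACSL3, which works at lipid droplets, had signals of 566 and 585 in ALDH+ cells and of 648 and 673 in ALDH- cells, for log2 ratios of -0.20 on each array. ACSL6, the isoform of brain and red cells, was not well above background in either population. The mean log2 ratios of the 4 measured ACSL genes therefore ran from -0.95 to 1.27.

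The vanin genes encode pantetheinases, which release pantothenic acid, the vitamin from which coenzyme A is made. VNN1 had the highest ratio of all 47 lipid genes and ranked 7th from the highest of 13702. Its signals were 977 and 1049 in ALDH+ cells and 419 and 325 in ALDH- cells. The log2 ratio of VNN1 was 1.22 on array 1 and 1.69 on array 2, with a mean of 1.46 ± 0.33, or 2.74-fold. The gap of 0.47 between its arrays was the widest among the 47 lipid genes, but each array alone was past 2-fold.

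VNN2, a second vanin, was dim, with signals of 142 and 139 in ALDH+ cells and of 115 and 92.6 in ALDH- cells. Its log2 ratios were 0.31 and 0.59, with a mean of 0.45 or 1.36-fold, and the ALDH- signal was well above background on 1 array. This ratio varied with the background correction, from 0.34 with none to 1.09 by the array software's ratio. VNN3 was not measured in either population.

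**Figure D2:**
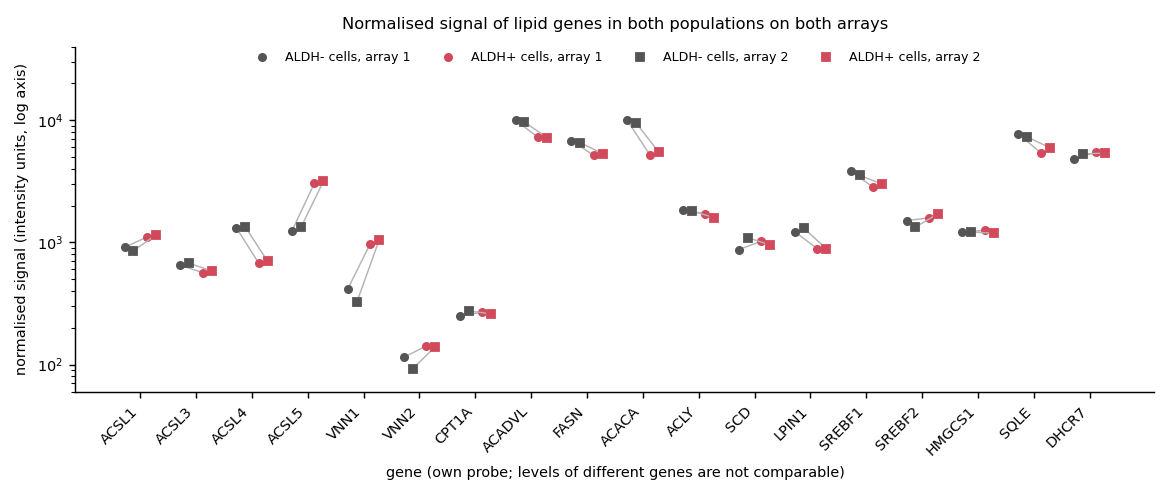
Normalised signal in intensity units on a log axis (vertical) for 18 lipid genes (horizontal), in ALDH- cells (grey) and ALDH+ cells (red), with circles for array 1, squares for array 2 and lines joining the 2 populations of an array. The levels of different genes have different probes and are not comparable. VNN1 and ACSL5 climb and ACSL4 and ACACA drop from ALDH- to ALDH+ cells on both arrays, while CPT1A, SCD and HMGCS1 cross or stay level.

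Activated fatty acids cross into mitochondria through the carnitine shuttle. CPT1A, its rate-limiting outer membrane enzyme, had signals of 267 and 260 in ALDH+ cells and of 252 and 275 in ALDH- cells. The log2 ratio of CPT1A was 0.09 and -0.08, opposite on the 2 arrays, with a mean of 0.00. CPT2, which reforms the acyl-CoA inside, had a mean of 0.15. Inside mitochondria, the first dehydrogenation is done by chain-length specific enzymes. ACADVL, for very long chains, was lower in ALDH+ cells, at log2 ratios of -0.46 and -0.43 (signals of 7260 and 7193 against 10008 and 9684), and ACADM, for medium chains, had a mean of -0.04. ACADL, for long chains, was not measured.

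The trifunctional protein carries out the later steps for long chains, and its alpha and beta subunits are HADHA and HADHB. HADHA was higher in ALDH+ cells on both arrays, with log2 ratios of 0.40 and 0.31. HADHB had -0.25 and 0.08, opposite on the arrays. The last step, thiolysis, is also done by ACAA2 in mitochondria (mean 0.04) and by ACAA1 in peroxisomes (mean 0.14, with 0.30 and -0.01 on the arrays). The direction for ACAA1, ACAA2, CPT1A and HADHB depended on the array.

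PPARA and PPARD, nuclear receptors that switch on genes of fatty acid use, went in different directions. PPARA had signals of 140 and 144 in ALDH+ cells and of 191 and 190 in ALDH- cells, for log2 ratios of -0.45 and -0.40 and a mean of -0.43. The array software's ratio for this dim probe was -0.77. PPARD had signals of 425 and 400 in ALDH+ cells and of 374 and 384 in ALDH- cells, for log2 ratios of 0.18 and 0.06 and a mean of 0.12. The median log2 ratio of the 16 activation and oxidation genes was 0.08 (0.12 on array 1 and 0.07 on array 2), and 8 of the 16 lay within 0.25 of 0.

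Of the enzymes that make fatty acids, ACACA and FASN were lower in ALDH+ cells on both arrays. ACACA, the carboxylase that makes malonyl-CoA, had signals of 5238 and 5509 in ALDH+ cells and of 9987 and 9474 in ALDH- cells at its brighter probe. Its log2 ratio there was -0.93 and -0.78, with a mean of -0.86 ± 0.11, which is 1.81-fold lower and ranked 188th from the lowest. FASN, the synthase that builds palmitate, had signals of 5155 and 5323 in ALDH+ cells and of 6820 and 6547 in ALDH- cells, for log2 ratios of -0.40 and -0.30 and a mean of -0.35. For both genes, each ALDH+ signal lay below each ALDH- signal, in repeat readings of 1 extract per population. Such an order was also seen at the smaller ratio of ACLY. With median centring in place of loess, ACACA moved to -0.58 and FASN to -0.10. ACLY, which supplies the cytosolic acetyl-CoA, had signals of 1717 and 1593 against 1838 and 1807, and log2 ratios of -0.10 and -0.18. Its mean of -0.14 turned to 0.00 with median centring in place of loess. ACACB, the carboxylase of the mitochondrial surface, was not measured.

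The 2 probes of ACACA, whose sequences are given above, did not give the same ratio. The dimmer one lies 245 kb from the brighter one on the same strand, upstream in the direction of transcription. Its signals were 673 and 615 in ALDH+ cells and 692 and 726 in ALDH- cells, and its log2 ratios were -0.04 and -0.24, with a mean of -0.14. The gap of 0.72 between the probes was the widest among 9 lipid genes with several measured probes. The next, for SREBF1, was 0.32. Of 2519 genes with several measured probes, 70 (2.78%) had a gap at least as wide, and the median gap was 0.17. With the mean over its probes, ACACA was at -0.50 and no longer past 1.5-fold, so its place among the 4 genes rests on the choice of the brighter probe.

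Enzymes that lengthen and desaturate fatty acids differed little or unevenly. SCD, which makes oleic acid, had signals of 1022 and 952 in ALDH+ cells and of 874 and 1092 in ALDH- cells, for log2 ratios of 0.23 and -0.20, opposite on the arrays, and a mean of 0.01. ELOVL1, an elongase of very long chains, had 0.54 and 0.14, and ELOVL5, an elongase of polyunsaturated fatty acids, a mean of 0.04. FADS1, the delta-5 desaturase, was lower in ALDH+ cells at -0.20 and -0.56, whereas FADS2, the delta-6 desaturase, had a mean of 0.08. ELOVL6, the elongase of palmitate, was well above background on 1 array in each population and so not measured.

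Genes of triglyceride assembly, storage and release followed. LPIN1, the phosphatidate phosphatase that makes diacylglycerol, had signals of 891 and 890 in ALDH+ cells and of 1220 and 1310 in ALDH- cells. Among the 47 measured genes it was the next lowest after ACSL4 and ACACA. Its log2 ratios were -0.45 and -0.56, with a mean of -0.51 or 1.42-fold lower. GPAM, which starts glycerolipid synthesis, had a mean of -0.06, and DGAT1, which completes triglyceride, a mean of 0.24 from 0.42 and 0.07. PLIN2, a coat protein of lipid droplets, had signals of 1665 and 1632 in ALDH+ cells and of 1567 and 1488 in ALDH- cells, for log2 ratios of 0.09 and 0.13 and a mean of 0.11. PNPLA2, the lipase that opens triglyceride, was at -0.01 on each array. FABP5, a carrier of fatty acids in the cytosol, was higher in ALDH+ cells at 0.25 and 0.42. DGAT2 and FABP1 were not measured.

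The 2 regulators in this function had ratios of opposite sign. PPARG, the receptor that drives fat storage, was dim, with signals of 172 and 169 in ALDH+ cells and of 142 and 133 in ALDH- cells, and log2 ratios of 0.27 and 0.35. Its mean of 0.31 became 0.65 by the array software's ratio and 0.21 with the mean over its probes. A dimmer PPARG probe had a mean of 0.12. SREBF1, the sterol-regulated factor that mainly serves fatty acid synthesis, had signals of 2836 and 3000 in ALDH+ cells and of 3831 and 3539 in ALDH- cells at its brighter probe, with log2 ratios of -0.43 and -0.24 and a mean of -0.34. A dimmer SREBF1 probe had a mean of -0.02. Over the 16 measured genes of lipogenesis and storage the median was 0.00 (0.01 and -0.02 on the arrays), and 8 of the 16 lay within 0.25 of 0.

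**Figure D3:**
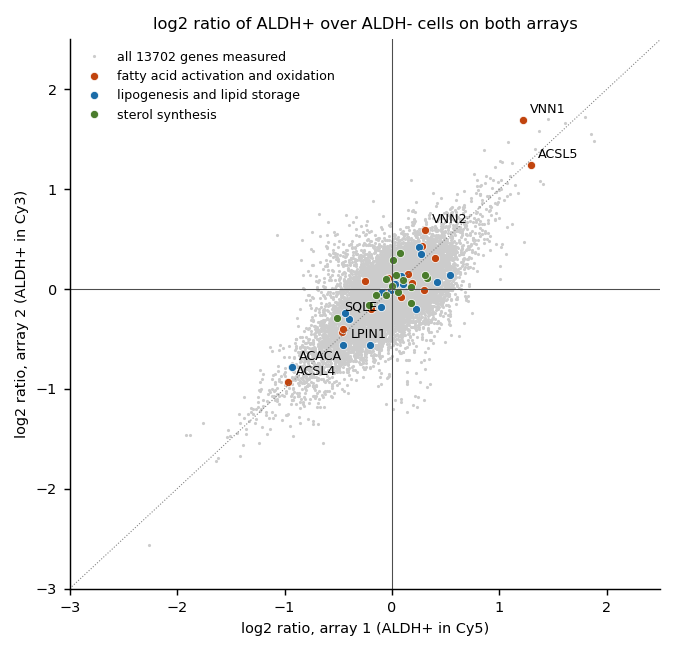
Log2 ratio of ALDH+ over ALDH- cells on array 1 (horizontal axis) against array 2 (vertical axis) for all 13702 measured genes (grey) and the lipid genes in the colour of their function; the dotted line marks equal ratios. VNN1 and ACSL5 lie near the upper end of the diagonal, ACSL4 and ACACA towards its lower end but short of the lowest genes, which reach a mean of -2.42.

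Sterol synthesis was the function in which every gene was measured. After loess, 14 of its 15 genes (93.3%) lay within 0.25 of 0, against 67.9% of all measured genes. Of 28 further sterol genes, described below, 13 (46.4%) did. With median centring 9 of the 15 did, where 61.2% of all genes did. By the array software's ratio it was 10 of 15, where 54.8% of all genes did. The median log2 ratio was 0.02 (0.04 and 0.03 on the arrays), with single genes between -0.40 and 0.23. SREBF2, the factor that serves cholesterol synthesis and uptake, had signals of 1587 and 1712 in ALDH+ cells and of 1506 and 1333 in ALDH- cells, for log2 ratios of 0.07 and 0.36 and a mean of 0.22. INSIG1 had signals of 1757 and 1731 in ALDH+ cells and of 1638 and 1627 in ALDH- cells, with a mean log2 ratio of 0.09 (0.10 and 0.09). The escort protein SCAP had a mean of 0.02, and INSIG2, the second anchor, one of 0.15 that was near 0 on array 1 (0.01) and 0.29 on array 2.

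Along the pathway itself, HMGCS1, which makes HMG-CoA, had signals of 1256 and 1190 in ALDH+ cells and of 1210 and 1215 in ALDH- cells. Its log2 ratios were 0.05 and -0.03, with a mean of 0.01. The mevalonate enzymes MVK and MVD had means of 0.02 and 0.22, and the isoprenoid enzymes IDI1 and FDPS had means of -0.19 and -0.06. At the branch to squalene, FDFT1 had signals of 4186 and 3941 in ALDH+ cells and of 3387 and 3566 in ALDH- cells, for log2 ratios of 0.31 and 0.14 and a mean of 0.23.

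SQLE, the squalene epoxidase that follows FDFT1, was the one sterol gene beyond 0.25 after loess. It had signals of 5423 and 5976 in ALDH+ cells and of 7744 and 7297 in ALDH- cells. The log2 ratios of SQLE were -0.51 and -0.29, with a mean of -0.40 or 1.32-fold lower, and it moved to -0.14 with median centring. LSS, which closes the ring to lanosterol, had a mean of 0.09. DHCR7, which makes cholesterol from 7-dehydrocholesterol, had signals of 5465 and 5381 in ALDH+ cells and of 4837 and 5304 in ALDH- cells, for log2 ratios of 0.18 and 0.02 and a mean of 0.10. CYB5R3, a reductase that passes electrons to sterol and fatty acid desaturation, had a mean of -0.11. SOAT1, which esterifies cholesterol for storage, had signals of 308 and 275 in ALDH+ cells and of 272 and 303 in ALDH- cells, for log2 ratios of 0.18 and -0.14, opposite on the arrays, and a mean of 0.02.

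**Figure D4:**
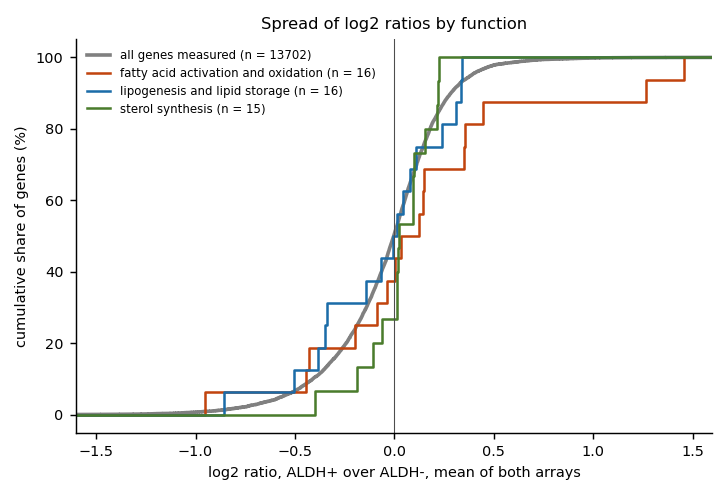
Cumulative share of genes in percent (vertical axis) by mean log2 ratio of ALDH+ over ALDH- cells (horizontal axis), for all 13702 measured genes (grey) and for the measured genes of the 3 functions (coloured steps). The sterol synthesis steps are the steepest, between -0.40 and 0.23, and the activation and oxidation steps reach from -0.95 to 1.46.

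The 250 bases before the start of 45 of the 54 genes could be read from a RefSeq table of promoters on GRCh38.p14, with the first window taken where a gene has several; ACAA1, DGAT1, DGAT2, FABP5, FASN, FDFT1, SQLE, VNN1 and VNN3 had no entry. The letters CCAAT, the core of the site of the factor NF-Y, were found on either strand in 9 of 13 sterol synthesis genes (69.2%), in 4 of 16 lipogenesis genes (25.0%) and in 3 of 16 activation and oxidation genes (18.8%). Of 27305 genes with a window, 33.0% had them. A sterol regulatory element, searched as TCACNCCAC on both strands, was present in SREBF2 and PNPLA2 alone (4.44% of the 45, against 0.875% of all genes). The E-box CACGTG, which reads the same on both strands, was found in 4 of the 45 (8.89%, against 6.49% of all): ELOVL5, INSIG1, PLIN2 and SCAP. No match to one of these motifs can lie inside a match to another. A match is a run of letters and not a binding site. Nor does the lack of a match show that a gene has no site, as only these letters were searched in 250 bases. Promoters of 2 sterol genes are shown. Capitals mark the sterol regulatory element in SREBF2, whose CCAAT match is left in lower case, and in HMGCS1 both copies of CCAAT, which read ATTGG on this strand.
SREBF2 (chr22:41832855-41833104, plus strand): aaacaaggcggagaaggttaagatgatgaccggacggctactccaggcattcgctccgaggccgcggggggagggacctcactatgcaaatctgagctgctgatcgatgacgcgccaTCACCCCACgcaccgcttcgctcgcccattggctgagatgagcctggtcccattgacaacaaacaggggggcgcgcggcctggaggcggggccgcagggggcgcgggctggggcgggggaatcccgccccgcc
HMGCS1 (chr5:43313413-43313662, minus strand): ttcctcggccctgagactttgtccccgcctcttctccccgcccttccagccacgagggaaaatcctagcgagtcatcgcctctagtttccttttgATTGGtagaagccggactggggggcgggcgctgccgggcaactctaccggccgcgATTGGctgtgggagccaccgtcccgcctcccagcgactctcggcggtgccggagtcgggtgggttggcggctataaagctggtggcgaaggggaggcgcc
The mean log2 ratio of these 2 genes was 0.22 and 0.01.

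Other genes of the same pathways, taken from lists of 145 names of which 133 were on the array, gave 99 measured genes with a median log2 ratio of 0.06. Past 1.5-fold, 6 of these (6.06%) were higher and 5 (5.05%) lower in ALDH+ cells, beside 1.5% and 4.6% of all measured genes. In activation and oxidation, 39 were measured, with a median of -0.06, and 3 were higher. DECR1, the reductase that prepares unsaturated fatty acids for oxidation, had signals of 516 and 461 in ALDH+ cells and of 288 and 278 in ALDH- cells, with a mean log2 ratio of 0.78. ACADSB, the short and branched chain dehydrogenase, had a mean of 0.73 (0.79 and 0.67). ECHS1, the mitochondrial enoyl-CoA hydratase, had a mean of 0.65, with 0.91 and 0.39 on the arrays. PDK4, a kinase that shuts pyruvate dehydrogenase and is a known PPAR target, was lower at -0.61 and -1.02, a mean of -0.82.

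In lipogenesis and storage 32 further genes were measured, with a median of 0.09. The lowest were MOGAT1, an acyltransferase that makes diacylglycerol, and MLXIPL, the carbohydrate response factor ChREBP. MOGAT1 had signals of 355 and 424 in ALDH+ cells and of 891 and 1056 in ALDH- cells, which is a mean log2 ratio of -1.32 or 2.5-fold lower. MLXIPL had signals of 533 and 486 in ALDH+ cells and of 1232 and 1269 in ALDH- cells, a mean of -1.30 or 2.46-fold lower, and ranked 23rd from the lowest of 13702. Both were past 2-fold lower on each array, as none of the 47 measured genes was. PTPLA, a dehydratase of fatty acid elongation now named HACD1, was higher with a mean of 0.71.

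In sterol handling 28 further genes were measured, with a median of 0.16, and 19 of them were higher and 7 lower in ALDH+ cells on both arrays, where 33.6% and 36.2% of all genes were. NPC1, which moves cholesterol out of lysosomes, had signals of 1202 and 1126 in ALDH+ cells and of 2268 and 2380 in ALDH- cells, for log2 ratios of -0.92 and -1.08 and a mean of -0.998. ABCG1, which exports cholesterol, was lower at -0.68 and -0.66. LIPA, the lysosomal acid lipase, was higher with a mean of 0.62 (0.69 and 0.55), and STARD4, a carrier of cholesterol between membranes, with a mean of 0.59 (0.84 and 0.34). The lysosomal genes LIPA and NPC1 thus had ratios of opposite sign. NPC2, also lysosomal and short of 1.5-fold, was higher in ALDH+ cells at 0.53 and 0.32.

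Among the 4 lipid genes past 1.5-fold, ACACA came under it in 2 of 12 other ways of processing, at -0.50 with the mean over its probes and at -0.58 with median centring. Of the 12, the changes of filter could not alter ACACA, and the joined table repeats the array software's ratio. VNN1, ACSL5 and ACSL4 have 1 measured probe each and were well above background in both populations, so the filters and the probe rule could not change their ratios. Under the other settings, which vary the background correction, the normalization or the array, VNN1 lay between 1.22 and 1.69, ACSL5 between 1.23 and 1.42, and ACSL4 between -1.03 and -0.85.

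**Figure D5:**
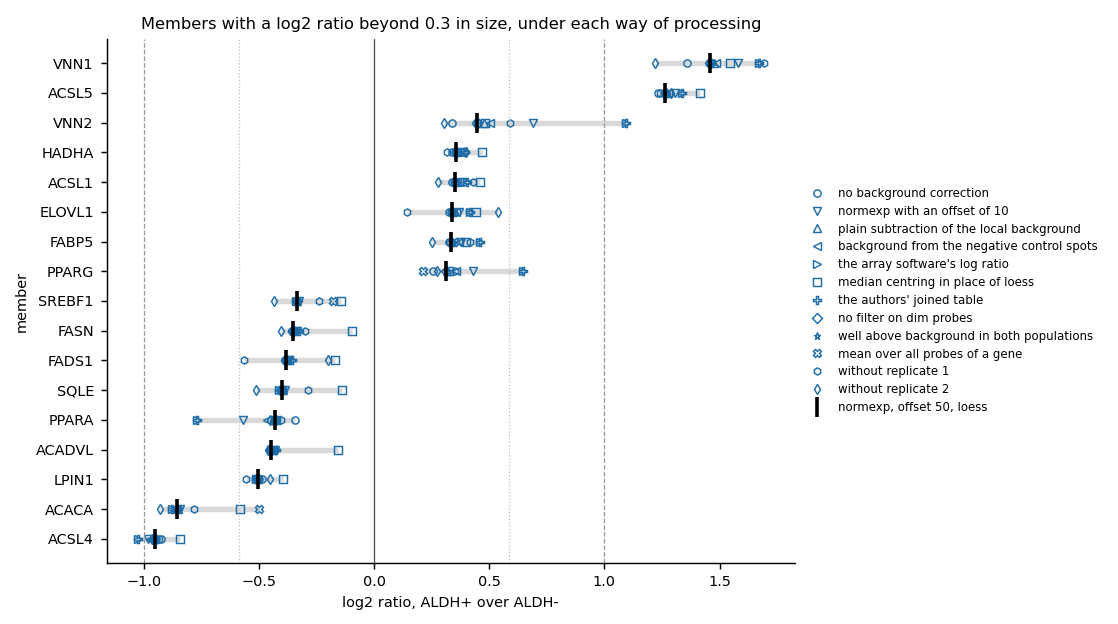
Log2 ratio of ALDH+ over ALDH- cells (horizontal axis) for the 17 lipid genes with a mean beyond 0.3 in size (vertical axis), under each of 12 alternatives (symbols) and as reported (black bar); grey bars span the range. ACSL5 and ACSL4 keep a narrow range, VNN2, PPARA and PPARG stretch outwards under the array software's ratio, and ACADVL, FASN and SQLE move towards 0 with median centring.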

How the data were processed

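From both sorted populations of RMG1, RNA was amplified from an oligo dT primer, labelled with Cy3 or Cy5 and hybridised to 2 Agilent two-colour arrays with the dyes exchanged, counted as 1 replicate. The authors deposited the intensity and local background of each spot without normalization, with the array software's log10 ratio, and a table joining that log10 ratio for both arrays. It differed from the software's own by no more than 0.001 on the log2 scale at all 43117 spots compared; 4 further columns of per-array values in it were not used. The file headers name Feature Extraction 10.7.3.1, the submitters' processing notes 8.5.1.1.

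For the ratios, limma 3.58.1 in R 4.3.3 applied normexp with an offset of 50 on mean signals and median local backgrounds, which compresses the ratios of dim probes, and loess within each array. Control and outlier spots were left out, and spots of a probe were averaged. A probe needed more than 50% of its spots well above background to count as such. The brightest measured probe stood for a gene, and log2 ratios were averaged over both arrays. Summaries used Python 3.11.15, numpy 2.4.6 and pandas 2.3.3, and figures matplotlib 3.10.9. Steps were tested on simulated data. For the ratios, these had the same dye shift at every signal level. Removal of a dye bias that varies with signal was therefore not tested.

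The lipid genes and all lists were chosen with earlier results of these data known. Every measured lipid gene is named. Signals are given for genes past 1.5-fold with 1 sign on both arrays and for the ACSL, VNN, PPAR and SREBF genes, CPT1A, FASN, ACACA, ACLY, SCD, PLIN2, INSIG1, HMGCS1, FDFT1, SQLE, DHCR7 and SOAT1. Those of ACADVL and LPIN1 were added after their values were seen. Genes of the further lists are named only past 1.5-fold with 1 sign on both arrays, except NPC2, added after its values were seen. With 1 extract of each population no test was made.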

Additional observations from a re-analysis of the deposited data

How the results depend on the processing

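No paired analysis was possible because each population was a single extract and nothing was tested. Under the array software's log ratio, and alike under the joined table, the median log2 ratio was 0.117 for activation and oxidation, 0.0268 for lipogenesis and 0.0544 for sterol synthesis, past 1.5-fold 4 lipid genes were higher and 3 lower in ALDH+ cells, and past 2-fold 3 and 1. All-gene shares rose too, to 4.09% and 9.17% past 1.5-fold and 1.0% and 2.0% past 2-fold. Median centring, used in place of loess, gave medians of 0.162, 0.136 and 0.235, and 1 lipid gene was more than 1.5-fold lower. All-gene counts past 1.5-fold then became 505 higher and 406 lower, from 206 and 630, and the median of all genes 0.07. On array 1 alone that median was 0.56 and on array 2 alone -0.44, where loess left 0.003 and -0.02. An offset of 10 gave a sterol median of 0.042, no filter on dim probes a lipogenesis median of 0.0449, and the filter on both populations an oxidation median of 0.0358. With the mean over probes 1 lipid gene (ACSL4) was more than 1.5-fold lower. Each array alone gave medians of 0.0692 to 0.118, -0.02 to 0.01 and 0.03 to 0.0422, 2 to 3 genes more than 1.5-fold higher, 2 lower, 2 more than 2-fold higher and 0 lower. The 4 genes past 1.5-fold kept their sign under the alternatives that were run, some of which cannot change a gene with 1 clearly measured probe, and 13 others, with mean ratios between -0.14 and 0.14, changed it in some. The cause of these changes was not tested. One sort and one extract of each population limit all values, and dim probes are limited by background, as for VNN2, PPARA and PPARG.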
